A study of Homo sapiens with 2 samples.

Results

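The POTE genes are a primate-specific family of ankyrin repeat genes, and 8 of them (POTEB3, POTED, POTEE, POTEF, POTEG, POTEI, POTEJ and POTEM) were examined on arrays of H9, an embryonic stem cell line of human origin. The family was chosen by its measured differences, since POTED and POTEB3 had already been seen to be lower in substate 2 on these arrays, so the differences given here are descriptions and none is a test. A probe was counted as a POTE probe where the RefSeq accession of the array design belonged to 1 of the 8 genes. By that rule 5 of the 8 genes, among 22439 genes with a probe, were represented by 8 of the 58201 probes, namely 2 each for POTED, POTEI and POTEM and 1 each for POTEB3 and POTEF, whereas no probe was matched to POTEE, POTEG or POTEJ. All 8 probes were well above background on both arrays and none was saturated.

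RNA had been hybridised on 2 arrays, 1 per substate. The study describes both substates in H9 cells kept in TeSR-E8 medium on Matrigel, an extracellular matrix preparation, after a change from Vitronectin at passage 35. Its methods do not state the matrix of each array sample. Substate 1, with typical colonies that stained strongly for the R-10G epitope and hardly for vimentin, was sampled at passage 35, and substate 2, with gaps between the cells of its colonies, positive for vimentin and weaker for the epitope, at passage 50. Substate and passage therefore cannot be told apart, the line is 1 genotype, and no difference has a replicate check. In such bulk RNA, fewer cells that express a gene and less RNA per cell cannot be told apart either.

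POTE proteins carry ankyrin repeats, which bind other proteins, followed by coiled-coil-forming helices. In POTEE, POTEF, POTEI and POTEJ an actin copy was inserted into an ancestral gene, so that these members end in an actin-like domain. The family is known for expression in prostate, ovary, testis and placenta, and again in several cancers, and its members are counted among the cancer-testis genes, a class that DNA methylation keeps silent in most adult tissues. The copies arose by recent duplication and lie near centromeres on several chromosomes. Of the genes with a probe, POTED is on chromosome 21, POTEB3 on chromosome 15, POTEF and POTEI on chromosome 2, and POTEM on chromosome 14. Because the copies are so alike, a probe designed for 1 member can bind the transcripts of others. Probe sequences were not used here, so every value below is that of a probe and only by name that of a gene.

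The promoters were compared as well, and the 250 bases before the annotated start are shown for the 5 genes with a probe. They describe the annotated starts only, and transcript sequences were not compared. RefSeq windows of the build GRCh38.p14 were matched by symbol for all 8 members, 10 windows in all, since POTEB3 and POTEI have 2 starts each. The more distant start is shown for these 2 genes. Capitals mark CpG dinucleotides, the sites of DNA methylation.
POTED, chr21:13609527-13609776, plus strand: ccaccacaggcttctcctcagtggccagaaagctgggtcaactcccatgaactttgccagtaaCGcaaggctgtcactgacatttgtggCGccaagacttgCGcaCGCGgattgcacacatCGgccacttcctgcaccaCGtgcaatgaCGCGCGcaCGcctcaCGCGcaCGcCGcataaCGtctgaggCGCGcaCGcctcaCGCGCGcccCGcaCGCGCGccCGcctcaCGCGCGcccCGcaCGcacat
POTEB3, chr15:21440500-21440749, minus strand: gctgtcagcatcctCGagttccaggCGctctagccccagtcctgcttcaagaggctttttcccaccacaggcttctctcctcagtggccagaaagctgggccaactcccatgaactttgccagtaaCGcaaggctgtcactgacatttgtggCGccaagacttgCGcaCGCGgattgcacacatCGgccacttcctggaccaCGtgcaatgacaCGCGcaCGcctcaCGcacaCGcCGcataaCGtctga
POTEI, chr2:130509708-130509957, minus strand: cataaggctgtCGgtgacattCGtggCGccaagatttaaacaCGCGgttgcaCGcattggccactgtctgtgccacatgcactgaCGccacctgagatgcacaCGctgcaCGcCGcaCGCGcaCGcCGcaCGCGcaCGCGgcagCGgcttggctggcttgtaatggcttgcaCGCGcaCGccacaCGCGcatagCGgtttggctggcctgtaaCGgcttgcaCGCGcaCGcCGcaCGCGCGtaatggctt
POTEM, chr14:18967184-18967433, plus strand: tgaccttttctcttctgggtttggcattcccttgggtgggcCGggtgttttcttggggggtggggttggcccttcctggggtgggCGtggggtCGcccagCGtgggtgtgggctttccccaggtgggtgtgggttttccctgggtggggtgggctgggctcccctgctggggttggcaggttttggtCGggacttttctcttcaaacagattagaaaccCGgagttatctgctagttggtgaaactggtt
POTEF, chr2:130129223-130129472, minus strand: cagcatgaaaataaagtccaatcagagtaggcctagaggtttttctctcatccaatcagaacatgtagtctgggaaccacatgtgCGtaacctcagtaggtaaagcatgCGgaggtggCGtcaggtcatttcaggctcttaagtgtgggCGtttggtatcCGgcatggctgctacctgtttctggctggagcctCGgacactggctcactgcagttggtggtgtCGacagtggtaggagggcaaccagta

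The windows fell into 3 blocks of related sequence. The 2 POTEI windows lay in different blocks and aligned over 9 columns, so the blocks sort annotated starts and not whole genes. The first block held POTED, both POTEB3 windows and the POTEI window shown, and with them POTEC and the second POTEB window. The best local alignment of the POTED and POTEB3 windows shown, each taken with 50 bases after the start, ran over 222 columns with 95.9% identity. POTED and POTEI aligned over 225 columns with 70.2% identity. The second block held POTEM, POTEG, POTEJ and the nearer POTEI start, and with them the first POTEB window, POTEB2 and POTEH. POTEM and POTEG were identical over all 300 bases, so that these members cannot be parted by this stretch, and POTEJ and the nearer POTEI start shared 298 of 300 bases. The third block was POTEF with POTEE, which aligned over 177 columns with 98.9% identity. No alignment of POTEF or POTEE with another POTE window was longer than 26 columns. POTEC, which was no member, aligned with POTED over 298 columns with 92.3% identity.

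The blocks also differed in CpG content. The POTED window had 32 CpG in its 250 bases, the POTEI window shown 33 and the nearer POTEB3 window 31, whereas the POTEB3 window shown had 16. Of the 35116 promoter windows in the table, with a median of 11, only 9.52% had as many CpG as POTED. As many as in the POTEI window shown were in 8.15%. The nearer POTEI window and the POTEF window each had 7 CpG and the POTEM window 6, counts that 58.9% and 61.9% of all windows reached. In all, 5 short motifs were searched on both strands, and none of them contains another. TATAAA, the TATA box, was in 0 of the 10 member windows and in 10.7% of all windows, and GGGCGG, the GC box, was in 0 of 10 and in 42.6%. CCAAT was in 5 of 10 member windows, 32.0% of all windows having it. CACCTG, an E-box bound by ZEB factors, was in 3 of 10 (the POTEI window shown, POTEM and POTEG) and in 17.5% of all. ATGCAAAT, the octamer of POU factors, was in 0 of 10 and in 1.63%. These matches describe letters in the windows only.

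**Figure D1:**
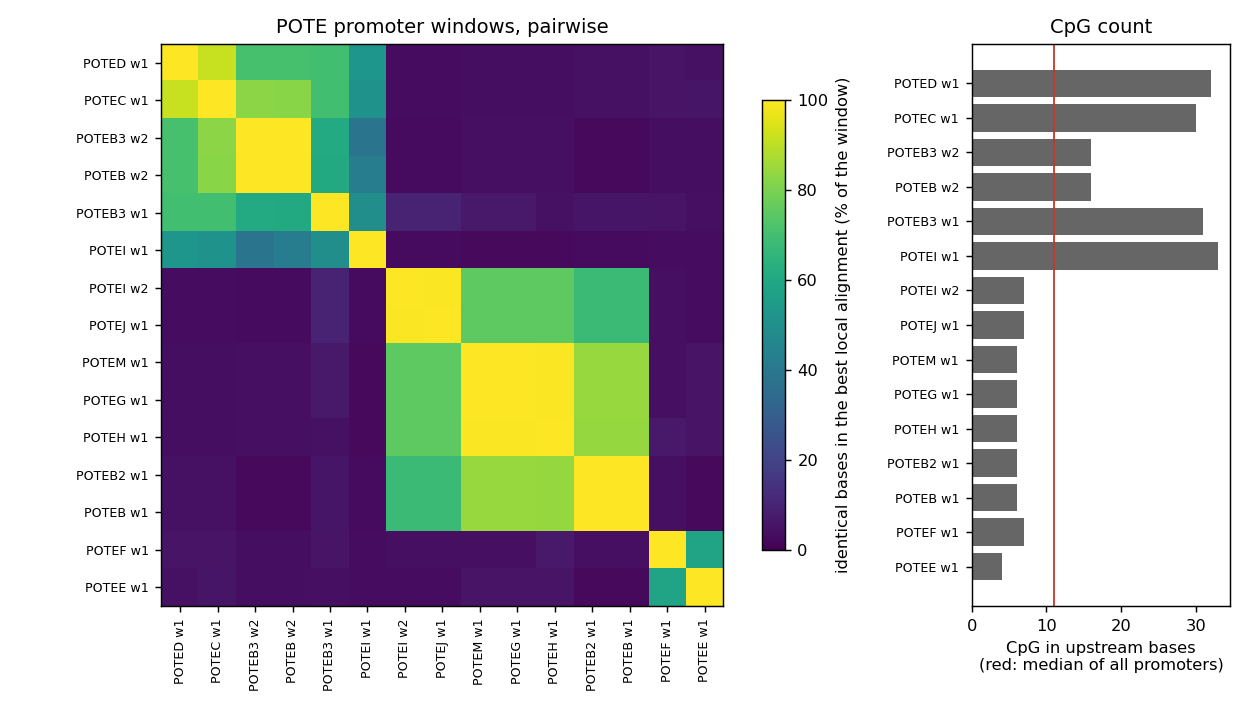
Left, bases identical in the best local alignment of each pair of POTE promoter windows, in percent of the 300-base window (colour), with w1 and w2 for windows of the same gene; right, CpG in the 250 upstream bases of each window, with the median of all promoters, 11, in red. The block of POTED, POTEC, POTEB3 (w1 and w2), POTEB w2 and POTEI w1 at the upper left shares no long stretch with the block of POTEM, POTEG and POTEJ, and its windows hold 16 to 33 CpG against 4 to 7 in all other windows drawn.

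POTED, the member on chromosome 21, was lower in substate 2 by both of its probes. Intensity below is the processed fluorescence of the scanner files, with the error that the scanner software gives for that spot. Probe A_23_P420348 read 133.6 ± 13.8 in substate 1 and 46.1 ± 5.96 in substate 2. On the normalised log2 scale, where 0 is the 75th percentile of the array, its level was -1.23 in substate 1 and -2.58 in substate 2. The difference, substate 2 minus substate 1, was -1.35 with a scanner error of 0.24, or 2.54-fold lower. The second probe, A_24_P237804, read 179.4 ± 18.2 and 74.7 ± 8.17, a difference of -1.08 with an error of 0.22, or 2.11-fold lower. Both probes thus read lower on the substate 2 array by several times their scanner error. Of the 29883 probes measured on both arrays, 0.375% were as low as the first difference and 0.917% as low as the second. The gap between the 2 differences was 0.27, and 29.7% of the 6685 pairs of probes of the same gene in the series had a gap at least as large.

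POTEB3, a member of the chromosome 15 group, was also lower. Its only probe, A_32_P16007, read 206.6 ± 21.1 in substate 1 and 101.7 ± 11.4 in substate 2. The difference of -0.83 with an error of 0.22 corresponded to 1.78-fold lower, short of 2-fold. It reached -1.06 when the background-subtracted signal was used without the correction for spatial trends. Among the measured probes 2.37% were as low. No probe was matched to POTEB or POTEB2, the near copies of POTEB3 on the same chromosome.

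POTEI and POTEM each had a probe that was lower and a probe that was higher. For POTEI, a member with an actin-like domain on chromosome 2, probe A_24_P825874 read 326.5 ± 32.9 in substate 1 and 138.9 ± 14.4 in substate 2, a difference of -1.04 with an error of 0.21, or 2.06-fold lower. The other POTEI probe, A_24_P410017, read 15901 ± 1590 and 17358 ± 1736, a difference of 0.31 with an error of 0.20. The same gene name therefore stood for a loss and for a slight gain. The gap between the pair was 1.36, which 0.314% of all same-gene pairs reached, where the median gap was 0.16.

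For POTEM, a member of the chromosome 14 group, probe A_33_P3401317 read 133.7 ± 13.7 in substate 1 and 79.1 ± 8.58 in substate 2, a difference of -0.57 with an error of 0.22, or 1.48-fold lower. Probe A_24_P238744 read 21508 ± 2151 and 24004 ± 2400, a difference of 0.35 with an error of 0.20. Their gap of 0.92 was reached by 1.84% of pairs. Averaging the probes would give -0.37 for POTEI and -0.11 for POTEM, values that neither probe of these genes showed.

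POTEF, another member with an actin-like domain, was read by 1 probe, A_24_P59220, at 10050 ± 1005 in substate 1 and 11361 ± 1136 in substate 2. The difference was 0.36 with an error of 0.20, or 1.29-fold higher, and 15.7% of the measured probes were as high. Like the higher probes of POTEI and POTEM, it differed by less than 2 times its scanner error. The 3 higher probes lay between 0.31 and 0.36 and the 5 lower probes between -1.35 and -0.57, so that none of these 8 probes had a difference between -0.57 and 0.31.

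**Figure D2:**
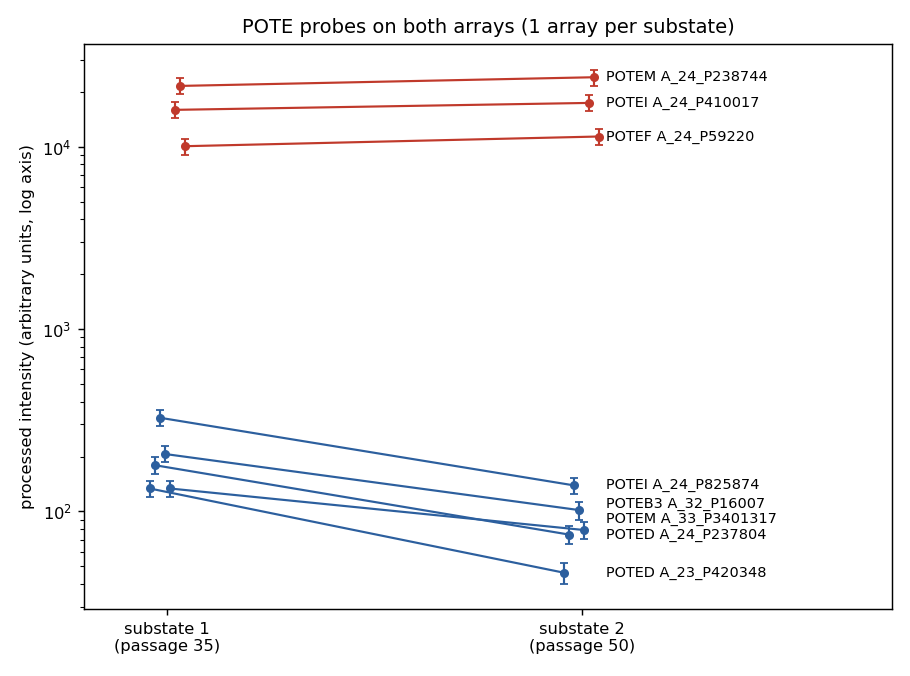
Processed intensity (arbitrary units, log axis) of the 8 POTE probes on the substate 1 and substate 2 arrays, with the scanner software's error of each spot as bars and each probe's values joined by a line. The 5 blue probes are lower in substate 2 and read between 46.1 and 326.5, and the 3 red probes are higher and read between 10050 and 24004.

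The lower and the higher probes were also parted by signal. The 5 lower probes read between 133.6 and 326.5 in substate 1 and between 46.1 and 138.9 in substate 2. The 3 higher probes read between 10050 and 21508 in substate 1 and between 11361 and 24004 in substate 2. Levels of different probes are not comparable as amounts of RNA, since probes bind with different strength, and only the differences are set side by side here. Differences moved with signal across the whole array. Among the 1216 measured probes with a mean normalised log2 signal from 5 to 7, where all 3 higher probes lay, the median difference was 0.21, the quartiles were 0.02 and 0.33, and 76.2% were above 0. Among the 7527 probes with a mean from -2 to 0, where all 5 lower probes lay, differences had a median of -0.01, an SD of 0.43, and were below 0 for 51.1%. These signal ranges were chosen after the values had been seen.

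Actin itself was measured beside the higher probes, because the transcripts of several members contain an actin sequence. Of the 2 probes of ACTB, the cytoplasmic beta-actin, A_32_P137939 read 191751 in substate 1 and 211642 in substate 2, a difference of 0.33, and A_23_P135769 read 17922 and 15457, a difference of -0.03. The probe of ACTG1, the cytoplasmic gamma-actin, read 39013 and 40787, a difference of 0.25. Actin genes went both ways. ACTA1 and ACTG2, muscle actins, differed by -0.88 and -0.85, and ACTA2, another muscle actin, by 0.36. Of 19 actin and actin-related genes with a probe, 15 were measured on both arrays, 10 higher and 5 lower, with a median difference of 0.15 against 0.08 over all 16001 measured genes. The part of actin transcripts in the POTE signals was not tested.

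Counted by size, 3 of the 8 POTE probes (both of POTED and A_24_P825874 of POTEI) were 2-fold or more lower and 0 were 2-fold or more higher. Of the 33166 probes that stood well above background on either array, 1.67% were 2-fold or more lower and 1.55% were 2-fold or more higher. Since the members were chosen for falls in this same contrast, nothing is read from the excess. Among measured probes with a mean signal from -2 to 0, 1.82% were 2-fold or more lower, and over all probes measured on both arrays 1.26% were, where 3 of the 5 POTE probes in that range and 3 of all 8 were. By the Z-score of the study, which subtracts the mean difference of all probes, divides by their SD and is called past 2 in either direction, 1 POTE probe was called, A_23_P420348 of POTED at -2.24, where 3.30% of all probes lay below -2 and 3.03% above 2. The other POTED probe stood at -1.82, the lower POTEI probe at -1.77, POTEB3 at -1.43 and the lower POTEM probe at -1.01. The higher probes had Z-scores from 0.38 to 0.46. In all, 5 of the 8 probes were lower, with a median difference of -0.70 over the 8, and 44.0% of all measured probes were lower, with a median of 0.06.

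**Figure D3:**
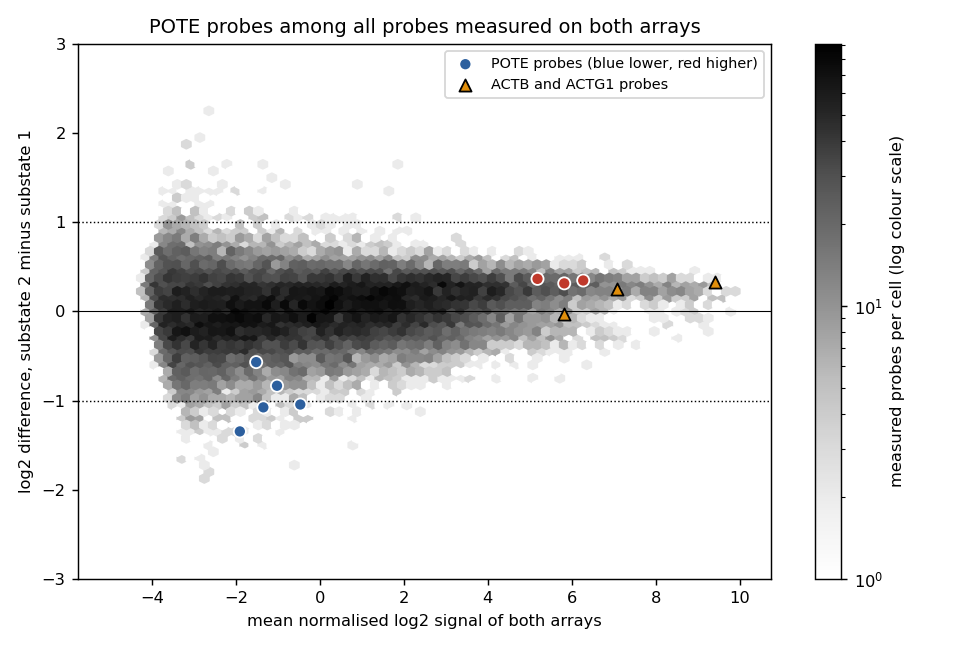
Log2 difference (substate 2 minus substate 1) against the mean normalised log2 signal of both arrays, with all probes measured on both arrays as grey cells by number (10 lie outside the axes), POTE probes as circles and ACTB and ACTG1 probes as triangles; dotted lines mark 2-fold. The 5 lower POTE probes lie between -1.35 and -0.57 at signals from -2 to 0, and the 3 higher ones lie between 0.31 and 0.36 at signals from 5 to 7, about the upper quartile of 0.33 of all probes there.

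The differences of the lower probes were smaller under normexp background correction, which here started from the median spot signal and added an offset of 50 to every intensity. In that setting the lower probes had differences of -0.69 and -0.66 for POTED, -0.66 for POTEB3, -0.66 for POTEI and -0.34 for POTEM. No POTE probe was then 2-fold lower, and the count over all probes was 63 in place of 553. All 8 probes kept their direction under each of the 7 alternatives of scaling, background and outlier handling.

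**Figure D4:**
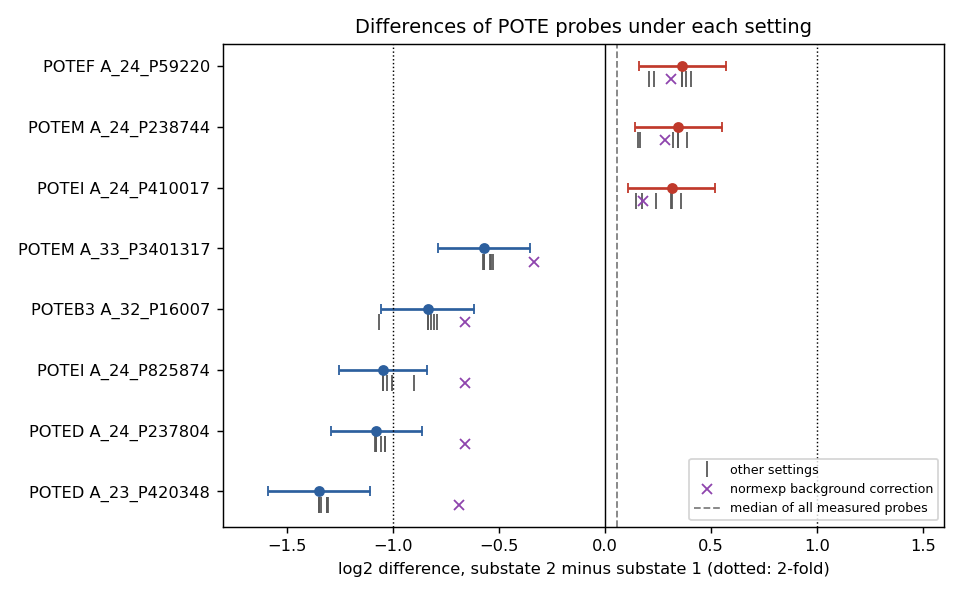
Log2 difference (substate 2 minus substate 1) of each POTE probe, with the scanner software's error as bars; ticks under each point are the values under 6 other settings, crosses those after normexp correction, the dashed line is the median of all measured probes, and dotted lines mark 2-fold. The 5 lower probes stay below 0 and the 3 higher ones above 0 throughout, and under normexp the lower ones lie between -0.69 and -0.34.

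The remaining family members gave little signal. Of the 10 other genes listed with a POTE name (POTEA, POTEB, POTEB2, POTEB4, POTEC, POTEGL, POTEH, POTEKP and the antisense genes POTEA-AS1 and POTEH-AS1), only POTEA had a matched probe, and it was well above background on neither array, reading 2.85 in substate 1 and 2.97 in substate 2. The array also carried 6 probes for long noncoding transcripts that its design names after POTEB or POTEF, which are not transcripts of those genes by the rule used here. Of these, lnc-POTEB-5:4 was measured on both arrays and read 30.5 and 32.3, a difference of 0.27 with an error of 0.32. Probe lnc-POTEB-2:1 read 14.7 in substate 1, not well above background, and 41.3 in substate 2, at least 3.21-fold higher, the direction opposite to POTEB3. The other 4 were well above background on neither array.

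Genes related to POTE by their ankyrin repeats leaned the same way as the lower probes. The list held 22 genes of the ANKRD26, ANKRD30, ANKRD18, ANKRD20 and ANKRD36 groups and of CCDC144, among which ANKRD26 is the gene from whose ancestor POTE is thought to derive. Of the 14 with a probe, 8 were measured on both arrays, and all 8 were lower in substate 2, with a median difference of -0.42 and none 2-fold lower. Of all measured genes 40.2% were lower and 1.07% were 2-fold lower, with a median of 0.08. Several of these relatives were dim, and 51.1% of measured probes with a mean log2 signal from -2 to 0 were lower. ANKRD30BL had a normalised log2 level of -1.84 in substate 1 and -2.52 in substate 2, a difference of -0.68. ANKRD26 went from 0.00 to -0.51, a difference of -0.51, and ANKRD20A1 from -2.08 to -2.54, a difference of -0.46. The smallest difference was that of ANKRD18DP, at -0.06. The 3 probes of CCDC144A ran from -0.74 to 0.13, so its mean of -0.39 hides a probe that was higher. ANKRD19P, ANKRD20A19P and ANKRD30A were detected on the substate 1 array only. Of all spots, 57.4% were well above background on that array and 54.7% on the substate 2 array. Some of these genes are themselves recent copies, and their probes can share transcripts.

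Other cancer-testis and germline genes were split among those measured on both arrays. Of 38 such genes with a probe, 13 were measured on both arrays, 7 lower and 6 higher, with a median difference of -0.06. DAZL, an RNA-binding protein of germ cells, was the only one past 2-fold, with a log2 level of -2.51 in substate 1 and -4.12 in substate 2, a difference of -1.61. Its substate 2 level was near the detection limit, since a GOLGA6L6 probe at -4.10 was not well above background on that array. TDRD6 and PIWIL4, which act in the piRNA pathway that silences transposons in the germline, both differed by -0.65. SSX2 (0.55) and MAGEB2 (0.38), classical cancer-testis antigens, were higher. In all, 18 of these genes were detected in substate 1 and 13 in substate 2. MAGEA4, PAGE2, PAGE2B, TDRD1 and TEX101 were detected in substate 1 only, and 20 genes, among them BRDT and PRAME, on neither array. Over all spots, 57.4% were well above background in substate 1 and 54.7% in substate 2.

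Markers of the tissues in which POTE genes are known gave the following levels. The sum of levels is over the genes of a list, relative to the 75th percentile of the array. Of 8 prostate genes, 5 were detected on each array with a sum of 5.21 in substate 1 and 5.00 in substate 2, and the defining marker KLK3 was on neither. Of the 5, 4 were lower, with a median of -0.60 and values of -0.97 for ACP3 and -0.63 for TMPRSS2. Of 10 germ cell genes, 5 were detected in substate 1 and 4 in substate 2, with sums of 1.19 and 0.816. All 4 germ cell genes measured on both arrays were lower, with a median of -1.04. TFAP2C, which also acts in trophoblast and naive cells, differed by -1.86 and DAZL by -1.61, and these 2 were 2-fold lower. DAZL, near the detection limit in substate 2, is also in the cancer-testis and germline list. Of all measured genes 40.2% were lower and 1.07% were 2-fold lower. The germ cell marker DDX4 was on neither array. Of 11 trophoblast genes, 3 were detected on each array with sums of 11.0 and 12.5, and GATA3, TP63 and ERVW-1 were on neither.

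The label of an embryonic stem cell line was checked against marker genes. All 12 pluripotency genes with a probe were detected, with sums of 920.3 in substate 1 and 1053 in substate 2 and a median difference of 0.19. Of 12 neural ectoderm genes, 6 were detected in substate 1 and 9 in substate 2, with sums of 11.6 and 17.0. Over all spots, 57.4% were well above background in substate 1 and 54.7% in substate 2. HES5, POU3F2 and SOX1 were detected in substate 2 only. Of the 6 measured on both arrays 5 were higher and 1 lower, with a median difference of 0.55 against 0.08 over all measured genes. LHX2 was 2-fold or more higher, by 2.32 on the log2 scale, as were 0.931% of all measured genes, and PAX6 was on neither array. Of 9 epithelial and mesenchymal markers measured on both arrays, 4 were lower and 5 higher, with a median difference of 0.02. The list mixes epithelial and mesenchymal genes, so this median describes neither kind. CDH1 differed by -1.47, EPCAM by -0.80 and ESRP1 by -0.55, whereas VIM and ZEB1 differed by 2.53 and 2.54. CDH2 differed by 0.82 and TWIST1 by 0.52, and ZEB2 was detected in substate 2 only. The epithelial gene CLDN6 (-0.05) and the mesenchymal gene SNAI2 (0.02) hardly differed. SNAI2 was dim on both arrays, at log2 levels of -3.98 and -3.96. Of the 9 measured markers 1 was 2-fold lower and 2 were 2-fold higher, as were 1.07% and 0.931% of all measured genes. The part of these cell identities in the POTE differences was not tested.

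**Figure D5:**
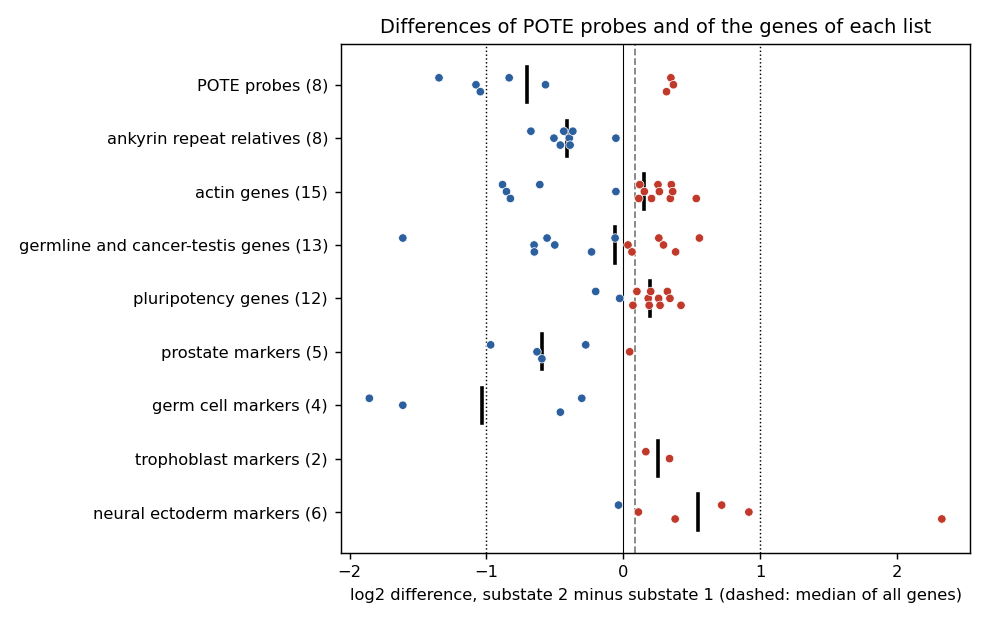
Log2 difference (substate 2 minus substate 1) of the 8 POTE probes and of each gene measured on both arrays in 8 lists (the number measured in brackets), with black bars for medians, the dashed line for the median of all measured genes and dotted lines for 2-fold. All 8 ankyrin repeat relatives lie below 0, with a median of -0.42, whereas actin genes and pluripotency genes have medians of 0.15 and 0.19.

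The genes next to the members on the chromosome were compared to see whether whole neighbourhoods moved. Neighbours were the 5 nearest genes with a probe on each side in the order of the RefSeq table, fewer near a chromosome end. Of the 10 neighbours of POTED, 4 were measured on both arrays and all 4 were lower, none by 2-fold, where 40.2% of all measured genes were lower and 1.07% were 2-fold lower. So few genes do not show a shift of the neighbourhood. TPTE, a membrane phosphatase gene expressed in testis, differed by -0.32, and another TPTE probe, for which detection was limited to substate 1, was lower by at least 1.48-fold. Both probes of TEKT4P2 were lower, by -0.71 and -0.63, RBM11 by -0.45 and LIPI by -0.38. The other 6 were near background on both arrays.

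Around POTEB3, 3 of 9 neighbours were measured, with differences of 0.12 for LOC646214, -0.14 for NBEAP1 and -0.15 for NF1P2, while LINC01193 was at least 4.86-fold higher by 1 of its 2 probes. GOLGA6L6 had a probe detected in substate 1 only, at least 2.09-fold lower, and another detected in substate 2 only, at least 1.33-fold higher. The median difference was -0.42 for the measured neighbours of POTED and -0.14 for those of POTEB3. The same rule was applied to the other members after their values had been seen. Of 9 measured neighbours of POTEF 2 were lower, with a median of 0.23. Of 5 measured around POTEI 1 was lower, FAR2P2, a duplicated pseudogene, at -0.99. POTEM had 2 measured neighbours, at 0.38 for MAFIP and -0.01 for BMS1P17.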

How the data were processed

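Messenger RNA was measured on 1 Agilent SurePrint G3 Human GE array (1 colour, Cy3) per substate. The authors deposited scanner output with the intensity of each spot. Background and spatial trends had been removed by Feature Extraction 11.5.1.1 (protocol GE1_1105_Oct12), as its headers state. The authors also deposited a table of log2 values scaled to the 75th percentile in GeneSpring GX, which differed from the values computed here by a constant per array for 100% of 58201 probes within 0.01. The slide and the scan were shared by both arrays.

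Intensities under 1 (0 spots) were set to 1, log2 was taken, outlier spots (71 and 101) were left out, repeated spots were averaged by probe, and each array was centred on its 75th percentile. On the arrays 57.4% and 54.7% of 60901 spots were well above background. A probe detected on 1 array only was given a bound against the lowest detected signal of the other array or its own value, whichever was higher. Probes were named through RefSeq accessions in a table for GRCh38.p14, which matched 31104 probes. The array was annotated on hg19, so no gene coordinates are given beyond those of the promoter table. Those promoter windows were aligned with Biopython 1.88. Python 3.11.15, pandas 2.3.3, statsmodels 0.14.6 and limma 3.58.1 were used, and the steps were tested on simulated data. Scanner errors are the software's estimate for the spot and do not cover the cells or the labelling. Each POTE probe had 1 spot per array, so these errors are no spread measured over spots. For the differences of POTE probes they ran from 0.20 to 0.24, where repeated spots of other probes gave a difference an SD of 0.07. The named genes were every member with every probe, the other POTE genes, ACTB and ACTG1, list genes past 2-fold, the neighbours and the 5 genes nearest in level to POTED and to POTEB3. Further list genes named with values were chosen after these had been seen. The members and lists were chosen with earlier results of these data known. With 1 array per group no test was possible and no p-value is given.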

Additional observations from a re-analysis of the deposited data

How the results depend on the processing

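No paired analysis was possible because only 1 array per substate existed, and for the same reason no array could be left out. A value was taken to have moved where it changed by more than 0.07 on the log2 scale, the SD that spot noise gives a difference. Normexp background correction, applied to the median spot signal because the files have no mean spot signal and so chosen after they had been read, moved the mean differences of POTED to -0.67, POTEB3 to -0.66, POTEI to -0.24 and POTEM to -0.025, and left 0 in place of 3 POTE probes 2-fold lower. Its offset of 50 shrinks the differences of dim probes by construction. Over all probes it left 63 lower and 89 higher by 2-fold, in place of 553 and 514. The background-subtracted signal without spatial detrending moved POTEB3 to -1.06, and 3 probes were again 2-fold lower, with POTEB3 in place of the POTEI probe (-0.90). Quantile normalisation moved POTEF to 0.23 and POTEM to -0.19. Loess centring moved POTEF to 0.21, POTEI to -0.45 and POTEM to -0.19. The cause of these shifts was not tested. By the Z-score 1 probe was called lower in place of 3. At a limit of 1.5-fold, 4 probes were lower in place of 3, POTEB3 being added. The other gene means moved by no more than spot noise, counts staying within 1.5 times, and no difference changed sign. Single probes moved where some of these means did not. The higher POTEI probe went from 0.31 to 0.17 under quantile normalisation and to 0.14 under loess centring. The higher POTEM probe went from 0.35 to 0.15 and 0.17 under the same settings. Centring on the median moved the median of all measured probes from 0.06 to 0.10. The lower probes read 46.1 to 138.9 in substate 2, and all were well above background.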

Other observations

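With 2 arrays, a pattern is only a pair of levels, and the genes nearest to POTED and POTEB3 by that pair are given as a description. The distance was taken over both normalised log2 levels among the 16001 genes measured on both arrays. Nearest to POTED (-1.02 in substate 1 and -2.23 in substate 2, as means of its 2 probes) were ICAM5 at a distance of 0.11, LY75 at 0.13, PROM2 at 0.13, LINC01355 at 0.15 and OVOL1 at 0.16. ICAM5 differed by -1.24, LY75 by -1.38, PROM2 by -1.13 and OVOL1 by -1.40, and LINC01355 was lower as well. Differences near that of POTED follow from matching on both levels, and a shared function was not tested. Nearest to POTEB3 (-0.60 and -1.44) were SNORD11B at 0.07, POMC at 0.08, CAPN13 at 0.08, MANSC1 at 0.10 and WDPCP at 0.11.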
